A study of Mus musculus with 2 samples.

Results

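The genes of Wnt signalling were compared in 2 RNA-seq libraries of sorted mouse lung epithelium, 1 library per genotype. Members were taken by symbol and by no measured value: the Wnt ligands, Porcn and Wls, the frizzled, Lrp5 and Lrp6 receptors, the R-spondins with Lgr4 to Lgr6, Znrf3 and Rnf43, the Sfrp, Dkk and Wif1 antagonists, and the Dvl, Axin, Apc, Nkd, Tcf7 and Lef1 genes. This gave 64 of the 22072 gene symbols listed. The rule itself used no values, but it was chosen with earlier results of these data known. Adult mice of both genotypes carried the tetOCre transgene with Mst1-flx/flx and with Mst2-flx/flx, and ate doxycycline food at 625 mg/kg for 16 days. The Mst1/2 D/D mice had Scgb1a1-rtTA as well, the doxycycline-dependent activator under the promoter of Scgb1a1, a gene of club cells, so that Cre could be switched on only in these mice. Activator, active Cre and the intended deletion therefore differ together and cannot be told apart. Lineage-negative lung cells that were positive for CD326 and intermediate for CD24 were sorted, and each library was made from the pooled RNA of 4 mice, called here the control pool and the Mst1/2 D/D pool. Mst1 and Mst2 (symbols Stk4 and Stk3) encode kinases at the top of the Hippo pathway, and the design asked which transcripts differ when they are deleted from mature secretory airway cells.

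Wnt proteins are secreted lipid-modified ligands. Porcupine (Porcn) attaches the lipid in the endoplasmic reticulum, and Wntless (Wls) carries the ligand to the cell surface. Outside the cell, a Wnt engages a frizzled receptor together with Lrp5 or Lrp6, the Dvl proteins relay the signal, and the Axin and Apc complex stops degrading beta-catenin, which then acts on genes with Tcf and Lef factors. R-spondins, through the Lgr receptors, remove the ubiquitin ligases Znrf3 and Rnf43, which otherwise take frizzled receptors off the membrane. In lung, Wnt signals act in the formation of the organ, in alveolar epithelium and in the response of airway cells to injury.

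With 1 pool per genotype there is no replicate error, no test was run, and the intervals given are exact 95% intervals for counting error only, with amplified reads not being independent molecules. About 8770000 and 8340000 reads lay on the listed transcripts of the control pool and of the Mst1/2 D/D pool. Levels are in FPKM, which divides the fragments of a transcript by its length and by the sequencing depth. Where values are given in pairs, the control pool comes first. Stk4 had FPKM of 5.38 and 4.71 and Stk3 7.28 and 7.09, and these levels do not check the label, since the labels do not say which exons Cre removes. Marker genes are called measured at FPKM of 1 or more in either pool, and their FPKM is summed over the whole list. Of 9 measured club cell markers, 7 were lower in the Mst1/2 D/D pool and 2 higher, with a median log2 difference of -0.46 and summed FPKM of 11919.6 and 10164. The secretoglobins Scgb3a1 (477 and 121) and Scgb3a2 (691 and 256) and Reg3g (39.0 and 19.1) were 1.5-fold or more lower on the log2(FPKM + 1) scale used throughout. Cyp2f2 had 4694 and 5305. Scgb1a1 was listed at 0 in both with the status HIDATA, given to loci with too many fragments to estimate, so its 0 is not a level. Markers of other cell types differed between the pools as well. Of 11 alveolar type 1 markers, 9 were 1.5-fold or more higher in the Mst1/2 D/D pool and none was lower by that much, with summed FPKM of 190.4 and 428. Cav1 (6.32 and 6.29) was about level. Of 11 mesenchymal markers, 5 were measured and 3 of these were 1.5-fold or more lower, with summed FPKM of 24.5 and 11.1, led by Dcn at 11.9 and 3.79. Also lower by 1.5-fold or more were 4 of 4 measured mucous markers (summed FPKM of 31.4 and 10.1, with Tff2 at 0 in the Mst1/2 D/D pool), 4 of 6 leukocyte markers (13.5 and 6.54), 2 of 4 basal markers (22.3 and 7.73), 1 of 2 mesothelial markers (7.04 and 4.37) and the 1 measured endothelial marker (10.9 and 6.51). All 9 ciliated markers listed were higher, 2 of them by 1.5-fold or more (35.97 and 56.9), as were all 10 alveolar type 2 markers, 1 of them by 1.5-fold or more, with Sftpc at 7888 and 10270. None of 5 neuroendocrine markers passed 1.5-fold. Unlike the 4 lower leukocyte markers, the other 2 measured, Csf1r (0.984 and 1.799) and Cd79a (0.527 and 1.065), were higher, both by less than 1.5-fold. Some markers were measured through 1 pool alone, the pool where they were higher. Through the control pool alone these were 2 mucous, 3 leukocyte, 2 mesenchymal, 1 basal and 1 mesothelial markers. Through the Mst1/2 D/D pool alone they were 3 ciliated, 2 leukocyte, 1 alveolar type 1 and 1 neuroendocrine markers. The counts for these types thus partly follow from the filter. The part of these cell types in the Wnt pathway values was not tested.

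Of the 64 genes, 27 reached FPKM of 1 in either pool. Among these, 2 (Lgr6 and Sfrp1) passed only through the control pool and 2 (Fzd6 and Tcf7) only through the other. Differences are those of log2(FPKM + 1), Mst1/2 D/D minus control, a scale that understates the differences of low genes. Higher by 1.5-fold or more on that scale in the Mst1/2 D/D pool were Porcn, Fzd1 and Rspo1, which is 3 of 27 or 11.1%, beside 3.02% of the 9945 genes that met the same level. Sfrp1 was the 1 gene of 27 (3.70%) that was lower, beside 2.59% of all genes, so the lower count was near the background. With the median difference of all genes set to 0, the background shares were 2.09% higher and 3.27% lower, and the same 3 and 1 genes were called. The median log2 difference was 0.24 over the 27 genes and 0.07 over all 9945. Over all 64 genes, of which 37 lay under FPKM of 1 in both pools, it was 0.004.

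**Figure D1:**
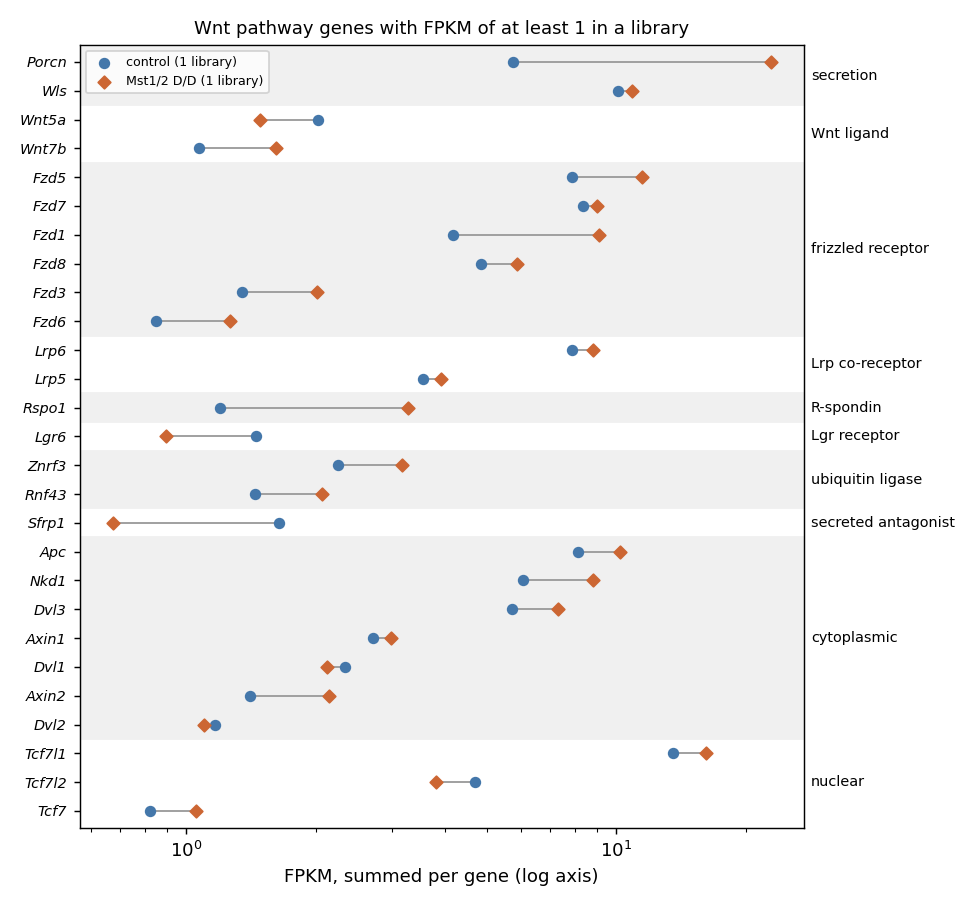
FPKM (log axis) of the 27 genes that reached FPKM of 1 in either pool, ordered by role; circles are the control pool and diamonds the Mst1/2 D/D pool, 1 library each, so there is no error bar. Porcn, at 5.74 and 22.9, has the widest gap on this axis, while Wls in the same row group had 10.1 and 10.9.

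The genes of Wnt secretion did not differ alike. Porcn, the acyltransferase without which Wnt ligands are not secreted, was at FPKM 5.74 in the control pool and 22.9 in the Mst1/2 D/D pool, a 3.98-fold difference (interval 3.50 to 4.56; chrX:7770976-7783651, mm9). It rested on about 289.5 and 1034 reads and had the 16th highest log2 difference (1.82) of all 9945 genes. Wls, the transport receptor that acts on the ligand after Porcn, was at FPKM 10.1 and 10.9, a ratio of 1.08 (0.971 to 1.20; chr3:159502659-159598139). Wls was thus above Porcn in the control pool and below it in the other.

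Porcn is listed as 4 transcript entries of 1863 to 1896 bases over 1 locus. The shortest, of 1863 bases, had FPKM of 5.74 and 19.96 and held 99.99% of the gene's FPKM in the control pool and 87.3% in the other. The entries of 1881 and 1896 bases, which were next to 0 in the control pool, had 2.07 and 0.837 in the Mst1/2 D/D pool. The entry of 1878 bases was next to 0 in both. The 4 entries differ in length by at most 33 bases, so how Cufflinks shared reads among them is uncertain, but the entry that dominated in both libraries was by itself higher in the Mst1/2 D/D pool.

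**Figure D2:**
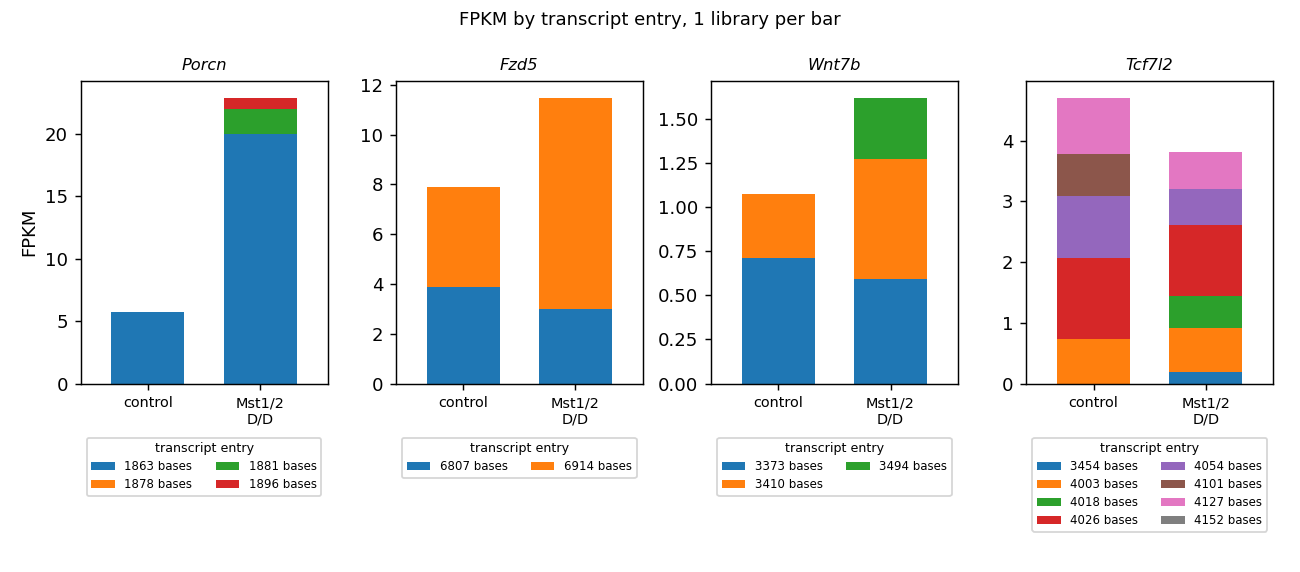
FPKM of each transcript entry (colours, named by length in bases) of Porcn, Fzd5, Wnt7b and Tcf7l2, stacked for the control pool and the Mst1/2 D/D pool, 1 library per bar. The 1863-base Porcn entry held most of the gene in both libraries, whereas the split of Fzd5, Wnt7b and Tcf7l2 between entries differed.

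Ligand transcripts were scarce. Of 19 Wnt genes, 2 reached FPKM of 1, and the FPKM of all 19 summed to 4.86 in the control pool and 4.39 in the other. Wnt5a, a ligand best known for signalling without beta-catenin, was at FPKM 2.02 and 1.49, a ratio of 0.736 (0.596 to 0.905). Wnt7b, a ligand of the airway epithelium, had 1.07 and 1.62, a ratio of 1.51 (1.17 to 2.00). Wnt5a gave 41.5% of the summed ligand FPKM in the control pool and 33.9% in the other, and Wnt7b 22.1% and 36.9%. The levels of both were close in the Mst1/2 D/D pool, on about 154 and 134 reads, and no interval was computed for that difference. With the highest entry of each gene in place of the sum, Wnt7b was at 0.710 and 0.681, under FPKM of 1 and below Wnt5a in both libraries. With entries summed, neither passed 1.5-fold on the log2(FPKM + 1) scale.

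Wnt7b has 3 listed entries, which differ at 1 end of the locus. The entry of 3373 bases had FPKM of 0.710 and 0.591, that of 3410 bases 0.362 and 0.681, and that of 3494 bases was next to 0 in the control pool and at 0.345 in the other. At about 98.2 and 134 reads for the whole gene, these splits rest on few reads.

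Below FPKM of 1, Wnt2b had 0.551 and 0.361 and Wnt4 0.477 and 0.231, both with intervals that include a ratio of 1. Wnt2, a ligand of lung mesenchyme named here after its values were seen, had 0.209 in the control pool, about 12.0 reads, and was listed at 0 in the other. Set against a floor of 3 reads in that library, the control value was 3.57-fold above the floor. The interval for counting error reached down to 2.49-fold lower. Mesenchymal markers were lower in the same library, and their part in the Wnt2 value was not tested. In bulk RNA, fewer cells of a type and less RNA per cell cannot be told apart. Wnt3, Wnt3a, Wnt5b, Wnt7a, Wnt9a, Wnt11 and Wnt16 lay between 0.011 and 0.229 in both libraries. Wnt9b and Wnt10a were detected only in the control pool, at about 0.966 and 3.21 reads. Wnt1, Wnt6, Wnt8a, Wnt8b and Wnt10b were listed at 0 in both. The Wnt genes that lie within 100 kb of another (Wnt1 with Wnt10b, 11.7 kb apart, Wnt3a with Wnt9a, 16.2 kb, Wnt6 with Wnt10a, 6.70 kb, and Wnt3 with Wnt9b, 24.4 kb) were all among the low or undetected ones.

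Frizzled receptors were far above their ligands in FPKM, a unit per transcript length. The 10 genes summed to 28.95 in the control pool and 40.3 in the other. Of all 10, 7 were higher in the Mst1/2 D/D pool and 3 lower. The 6 that reached FPKM of 1 were among the 7, but Fzd6 reached it only in that pool, and of all 9945 genes tested 6286 lay above 0. Of these 6, 1 passed 1.5-fold on the log2(FPKM + 1) scale. That gene, Fzd1, was at FPKM 4.18 and 9.11, a ratio of 2.18 (1.96 to 2.44; chr5:4753839-4758216, mm9), from about 495 and 966 reads on 1 listed transcript. Its difference of 0.97 ranked 83rd from the top among all genes tested.

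Fzd7, which belongs to the same receptor subfamily as Fzd1 and Fzd2, had 8.34 and 9.02, a ratio of 1.08 (0.993 to 1.18). Fzd2, the third of that subfamily, was low at 0.564 and 0.730. Fzd1 was thus well below Fzd7 in the control pool and level with it in the Mst1/2 D/D pool. Fzd1 gave 14.4% of the frizzled FPKM in the control pool and 22.6% in the other, while Fzd7 gave 28.8% and 22.4%.

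Fzd5, a receptor coupled to beta-catenin, was the highest frizzled gene in the Mst1/2 D/D pool with its entries summed, but its highest entry alone lay below Fzd1. Its FPKM was 7.88 and 11.5, a ratio of 1.45 (1.36 to 1.56; chr1:64777132-64784324), and it held a similar share of the frizzled total in both, 27.2% and 28.4%. Its 2 entries of 6807 and 6914 bases went opposite ways, 3.87 and 3.0001 for the first and 4.01 and 8.46 for the second, so Fzd5 passes 1.5-fold if the highest entry is taken in place of the sum. Fzd8, closely related to Fzd5, had 4.83 and 5.88. Fzd3 and Fzd6, which are known for planar cell polarity, had 1.35 and 2.01, and 0.848 and 1.26, with ratios of 1.49 each (1.32 to 1.69, and 1.13 to 1.96). Fzd4 stayed under FPKM of 1 at 0.869 and 0.850. Fzd9 and Fzd10 rested on no more than about 4.16 reads in a library.

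The co-receptors differed less than most frizzled genes. Lrp6 was at FPKM 7.87 and 8.85, a ratio of 1.12 (1.05 to 1.20), and Lrp5 3.54 and 3.90, a ratio of 1.10 (0.971 to 1.25). Lrp6 gave 69.0% and 69.4% of their summed FPKM. Most alveolar markers and all ciliated markers given above were higher in the same library as Porcn, Fzd1 and Fzd5, and their part in these values was not tested.

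**Figure D3:**
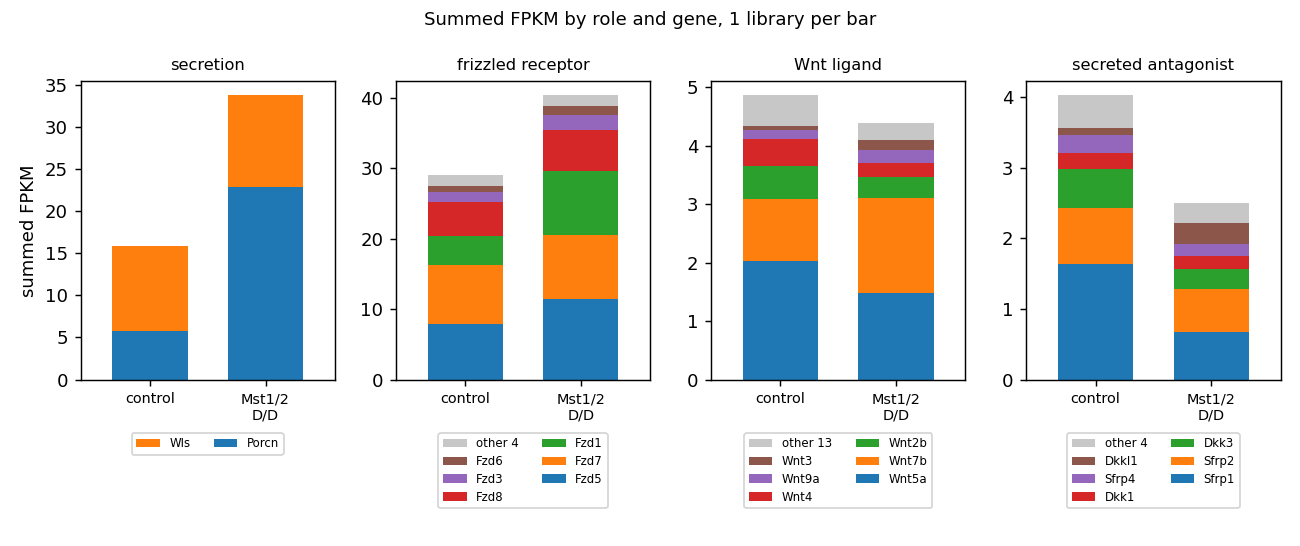
Summed FPKM by role, stacked by gene, for the control pool and the Mst1/2 D/D pool, 1 library per bar and each panel with its own axis from 0. Frizzled transcripts summed to 28.95 and 40.3, ligand transcripts to 4.86 and 4.39, and the secreted antagonists to 4.02 and 2.50.

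Among the R-spondins, the secreted ligands that raise sensitivity to Wnt, Rspo1 alone was measured. It was at FPKM 1.20 in the control pool and 3.28 in the Mst1/2 D/D pool, 2.74-fold higher (2.03 to 3.81; chr4:124663674-124686343, mm9). This rests on about 59.5 and 146 reads, fewer than for Porcn or Fzd1, and the interval is wider. Its difference of 0.96 on the log2(FPKM + 1) scale ranked 88th. Rspo3 and Rspo4 had about 2.01 and 0.838 reads in the Mst1/2 D/D pool and were listed at 0 in the control pool, and Rspo2 was listed at 0 in both. Of the 4 mesothelial markers listed, Msln was higher in the Mst1/2 D/D pool (2.58 and 3.50), while Upk3b (3.47 and 0.575), Lrrn4 (0.873 and 0.279) and Wt1 (0.124 and 0.014) were lower. Their part in the Rspo1 value was not tested.

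The receptors of the R-spondins were low, and none of the 3 was higher in the Mst1/2 D/D pool. Lgr6 was at FPKM 1.45 and 0.898, a ratio of 0.619 (0.466 to 0.825). Lgr4 had 0.573 and 0.479, with an interval of the ratio that includes 1, and Lgr5, the stem cell marker of the intestine, had 0.273 and 0.234. The ubiquitin ligases on which R-spondins act were both higher in the Mst1/2 D/D pool. Znrf3 had 2.25 and 3.17, a ratio of 1.41 (1.23 to 1.61), and Rnf43 1.44 and 2.07, a ratio of 1.43 (1.16 to 1.76). Neither ligase passed 1.5-fold on the log2(FPKM + 1) scale.

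**Figure D4:**
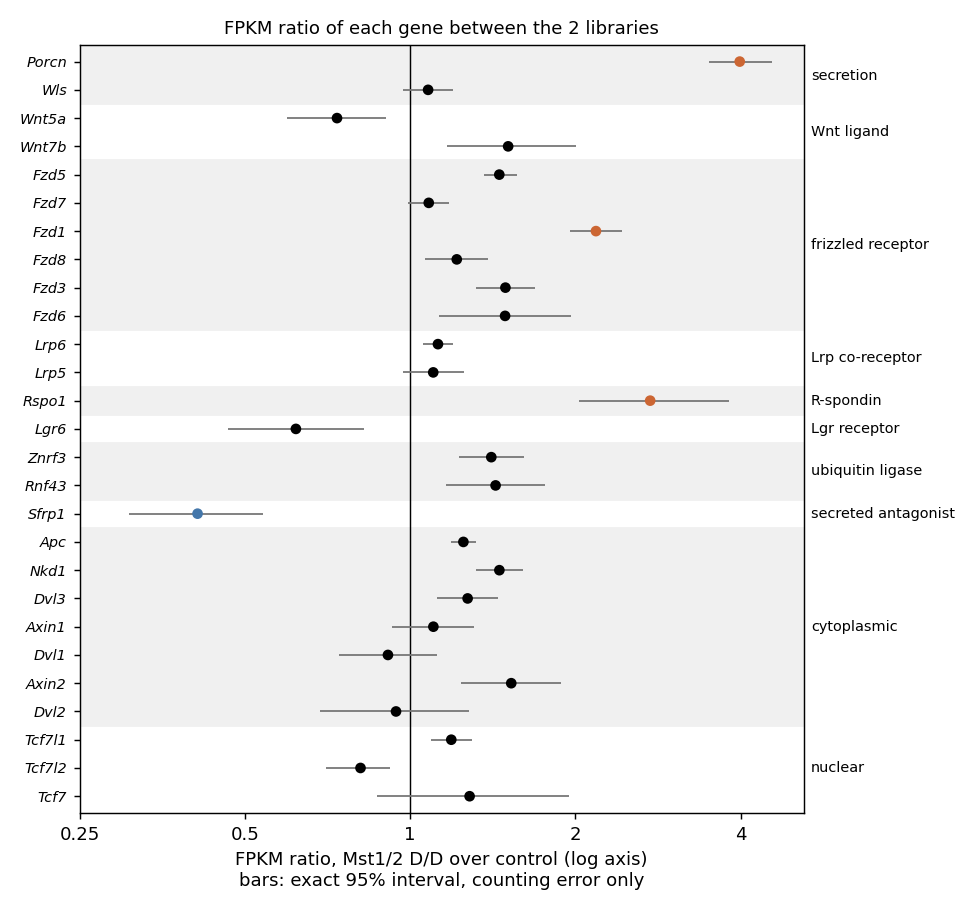
FPKM ratio of each of the 27 genes (log axis), Mst1/2 D/D over control, with exact 95% intervals for counting error only; coloured points differ by 1.5-fold or more on the log2(FPKM + 1) scale. Porcn (3.98), Rspo1 (2.74) and Fzd1 (2.18) lie farthest to the right and Sfrp1 (0.410) farthest to the left.

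Secreted antagonists, a group taken by symbol alone (Sfrp, Dkk with Dkkl1, and Wif1), were at low levels, with 7 of 10 genes lower in the Mst1/2 D/D pool and 3 higher. Over all 22072 symbols, 7356 were lower and 9908 higher. Of the 10 antagonists, 9 were under FPKM of 1 in both pools, several on few reads, so their directions are uncertain. Of these 10, 1 reached FPKM of 1, and the sum of all 10 was 4.02 and 2.50. That gene, Sfrp1, encodes a soluble frizzled-like protein that binds Wnt ligands. It had FPKM of 1.64 and 0.673, 2.44-fold lower (1.85 to 3.25; chr8:24521974-24560104, mm9), from about 194 and 71.3 reads. Sfrp1 gave 40.8% of the antagonist FPKM in the control pool and 26.9% in the other.

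Among the antagonists below FPKM of 1, Dkk3, a divergent Dickkopf gene, had 0.550 and 0.274, a ratio of 0.498 (0.284 to 0.827), and Sfrp2 0.782 and 0.612, with an interval that includes 1. Dkk2, named after its values were seen, had 0.297 and 0.056, 5.28-fold lower, on about 29.8 and 5.06 reads. Dkkl1 reached 0.2999 in the Mst1/2 D/D pool from 0.106, on about 6.56 and 2.59 reads. Dkk1, Sfrp4, Sfrp5, Wif1 and Dkk4 were at 0.25 or below in both libraries. The mesenchymal markers Dcn and Mfap4 (3.25 and 0.973) and Inmt (4.30 and 2.40) were lower in the same library as Sfrp1 and Dkk2, while Col1a1 had 0.824 and 0.828 and Acta2 0.291 and 0.604. The basal cell markers Krt5 (10.7 and 2.998) and Krt15 (7.56 and 2.59) were lower there too, as were most mucous, leukocyte and club cell markers, and the part of these cell types in these values was not tested.

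Inside the cell, the relay and destruction complex genes differed by less than 1.5-fold on the log2(FPKM + 1) scale, all 7 of those measured among 8. Apc, the scaffold of the destruction complex, was at FPKM 8.13 and 10.2, a ratio of 1.25 (1.19 to 1.32). Axin1, its limiting scaffold, had 2.71 and 2.99 (ratio 1.10, 0.927 to 1.31). Of the Dishevelled genes, Dvl3 was the most abundant at 5.73 and 7.29, whereas Dvl1 had 2.33 and 2.13 and Dvl2 1.17 and 1.10, both with intervals that include a ratio of 1.

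Several pathway genes are themselves raised by beta-catenin and act as feedback. Axin2, the target most widely used as a readout, was at FPKM 1.41 and 2.15, a ratio of 1.53 (1.24 to 1.88; chr11:108781663-108812095). Nkd1, which encodes an inhibitor that binds Dishevelled, had 6.08 and 8.84, a ratio of 1.45 (1.32 to 1.61). With Znrf3 and Rnf43, given above, and Tcf7, these make 5 measured genes of 8 in this set that are listed targets of beta-catenin. None of the 5 passed 1.5-fold on the log2(FPKM + 1) scale. All 5 lay above 0, as did 6286 of all 9945 genes tested, and Tcf7 (0.821 and 1.05) reached FPKM of 1 only in the pool where it was higher. The other 3, Lgr5, Lef1 (0.258 and 0.157) and Dkk1 (0.238 and 0.196), were under FPKM of 1 and lower in the Mst1/2 D/D pool, with intervals of the ratio that include 1. Over all 8, of which 5 were higher and 3 lower, the median log2 difference was 0.25. Nkd2 was low at 0.220 and 0.186.

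The transcription factors were led by Tcf7l1, often a repressor of Wnt targets, at FPKM of 13.6 and 16.1, a ratio of 1.19 (1.09 to 1.30). Tcf7l2 had 4.70 and 3.82, a ratio of 0.812 (0.701 to 0.920), so the nuclear factors did not differ in 1 direction. Tcf7l1 made up 70.2% of the FPKM of the 4 genes in the control pool and 76.2% in the other. Tcf7 had 0.821 and 1.05, and Lef1 was low as given above.

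**Figure D5:**
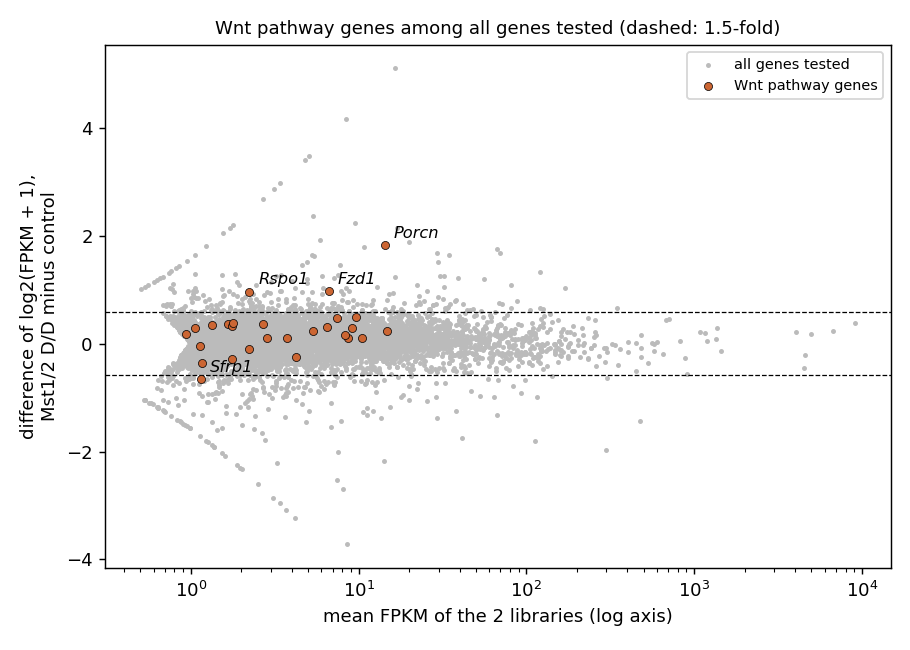
Difference of log2(FPKM + 1) between the libraries against mean FPKM (log axis) for all 9945 genes tested (grey) and the 27 Wnt pathway genes among them (orange); dashed lines mark 1.5-fold. Porcn (1.82), Fzd1 (0.97) and Rspo1 (0.96) lie above the upper line, Sfrp1 (-0.66) below the lower line, and the other 23 between them.

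Promoter windows are shown for Fzd1 and Rspo1, which were higher, for Fzd7 as the relative of Fzd1 that differed little, and for Axin2 as the common readout. They are the 250 bases before the gene start, 5′ to 3′ on the strand of the gene, from RefSeq (GRCm38.p6, a later build than the mm9 of the FPKM tables). A Tcf/Lef word (CTTTG followed by AA, AT, TA or TT) or a Tead word (GGAATG, the word read by the partners of Yap), on either strand, is in capitals. No word of one kind is part of a word of the other.
Rspo1 (chr4:124986180-124986429, plus strand): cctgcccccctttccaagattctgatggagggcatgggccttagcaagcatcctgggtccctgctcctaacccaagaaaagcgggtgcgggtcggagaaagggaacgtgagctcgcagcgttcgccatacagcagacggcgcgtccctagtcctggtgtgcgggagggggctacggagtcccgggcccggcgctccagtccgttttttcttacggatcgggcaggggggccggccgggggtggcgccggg
Fzd1 (chr5:4758217-4758466, minus strand): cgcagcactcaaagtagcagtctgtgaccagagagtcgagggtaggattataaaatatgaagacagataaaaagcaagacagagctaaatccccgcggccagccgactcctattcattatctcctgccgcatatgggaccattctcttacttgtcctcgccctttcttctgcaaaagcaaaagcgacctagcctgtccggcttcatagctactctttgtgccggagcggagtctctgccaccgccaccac
Fzd7 (chr1:59481897-59482146, plus strand): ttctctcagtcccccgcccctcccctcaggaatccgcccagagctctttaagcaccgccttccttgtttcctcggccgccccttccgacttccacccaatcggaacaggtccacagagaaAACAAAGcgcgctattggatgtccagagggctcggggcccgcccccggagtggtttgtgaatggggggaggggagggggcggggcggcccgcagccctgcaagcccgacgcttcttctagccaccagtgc
Axin2 (chr11:108920099-108920348, plus strand): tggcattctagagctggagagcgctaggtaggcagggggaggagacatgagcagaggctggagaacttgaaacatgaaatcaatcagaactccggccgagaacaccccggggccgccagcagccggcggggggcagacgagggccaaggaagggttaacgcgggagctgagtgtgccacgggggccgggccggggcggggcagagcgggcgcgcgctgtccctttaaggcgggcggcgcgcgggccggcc
The capitals in Fzd7 are 1 Tcf/Lef word on the other strand, starting at position -130 from the gene start. The other 3 windows hold neither word in these 250 bases. Porcn and Sfrp1, also 1.5-fold or more apart, had no entry among the promoters used and were not searched. Of the 64 genes, 43 matched the promoter table, with 52 windows. A Tcf/Lef word was in 6 of these windows (11.5%; Dkk1, Fzd7, Lef1, Tcf7l2, Wnt11 and Wnt5b), beside 14.8% of all 32851 windows, and a Tead word in 2 (3.85%; Dvl2 and Lgr4), beside 12.6%. These shares are descriptions of letters in a short window, not of binding.

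The other genes of the pathway were taken from lists of proteins that work with these members. Of 25 measured kinases, phosphatases and ligases around beta-catenin, 0 passed 1.5-fold on the log2(FPKM + 1) scale in either direction, and the median was 0.11. Ctnnb1, the beta-catenin gene, had FPKM of 57.4 and 63.9, and Skp1a, a subunit of the ligase that marks beta-catenin for degradation, 40.5 and 42.9. Among 19 measured nuclear cofactors 0 passed either way (median 0.09), with Tbl1x at 12.6 and 13.6 and the acetyltransferase Crebbp at 12.0 and 13.6. Of 16 measured genes of planar polarity and of Wnt signalling without beta-catenin, 0 passed (median 0.09), with the small GTPases Rac1 at 69.3 and 77.9 and Rhoa at 60.8 and 78.7. Just inside that limit was Celsr2, a cadherin of planar polarity, at 2.67 and 1.45 (log2 difference of -0.58), and the Wnt5a receptor Ror1 had 0.679 and 1.26. Celsr2 and Ror1 were named after their values were seen.

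Of 14 measured extracellular modifiers, 3 (21.4%) were lower by 1.5-fold or more, beside 2.59% of all genes. None was higher by that much, and the median was 0.02. Gpc3, a glypican that binds Wnt ligands at the cell surface, had FPKM of 4.18 and 1.70, 2.46-fold lower. Lypd6, a surface protein that acts with Lrp6, had 1.72 and 0.684. Of the 14, 1 (Lypd6) reached FPKM of 1 only in the control pool, where it was higher, and 1 (Reck) only in the other. Sulf2, a sulfatase that trims heparan sulfate, had 6.90 and 4.22. Sulf1, of the same list but under FPKM of 1 in both pools, was also lower by more than 1.5-fold, at 0.992 and 0.303. Mesenchymal markers were lower in the same pool, and their part in the values of Gpc3, Lypd6, Sulf2 and Sulf1 was not tested. The 2 most abundant, Tmem59 (50.3 and 60.3) and the cargo receptor Tmed2 (25.3 and 22.8), did not pass. Of 15 measured beta-catenin targets outside the 64 genes, 0 passed, 9 lay above 0 and the median was 0.03. The 2 highest of these went opposite ways, with Jun at 256 and 212 and Ccnd1, the cyclin D1 gene, at 48.9 and 54.3.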

How the data were processed

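RNA-seq of 2 libraries, each the pooled RNA of 4 mice of 1 genotype, was analysed. Per the submitters' processing notes, the authors used TopHat and Cufflinks with the mm9 build; versions, read length and strandedness were not given in the sources used here. As listed per the file headers, the deposited FPKM and coverage (a signal, the mean read depth over a transcript) are given for each of 28107 RefSeq transcript entries, with a transcript length and a status. All 82 entries of the 64 genes had status OK in both libraries.

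FPKM was summed per symbol and compared as log2(FPKM + 1), with a minimum of 1 in at least 1 library, using Python 3.11.15, pandas 2.3.3 and SciPy 1.17.1. Reads were approximated as coverage times length over 47.1 bases, the median of low single-transcript values between 25 and 75 bases, an assumption. Clopper-Pearson intervals of each ratio were scaled by the depth ratio of 0.895. Starts count from 1. The calls and intervals were run on simulated data as a check of the computation only. That check does not show that the calls of low genes, such as Rspo1 and Sfrp1, or of genes near the fold limit are reliable. It also holds no information on differences between mice or pools. FPKM depends on how Cufflinks shared reads among entries. Strand is not known; of the 27 genes measured, Dvl1 overlaps another listed gene.

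The members, the lists and the alternatives were chosen with earlier results of these data known. By rule, every member with FPKM of at least 1 in a library was named with both values, members under 1 where either value reached 0.3, and of each other list the genes at least 1.5-fold apart and the 2 most abundant. Values of Lgr5, Lef1, Dkk1 and Nkd2 were added after they were seen. Protein sequences were not used here.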

Additional observations from a re-analysis of the deposited data

How the results depend on the processing

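The alternatives were another pseudocount, other filters on low values, the highest entry per symbol, entries with status OK, conversion to TPM, a median difference of 0 over all genes, removal of the trend with transcript length, and a 2-fold limit. Porcn and Fzd1 passed 1.5-fold under each of these that kept that limit; Rspo1 and Sfrp1 did so except with a minimum FPKM of 5, which neither reaches. At 2-fold on the log2(FPKM + 1) scale, the higher count fell to 1 (Porcn) and the lower to 0. In FPKM itself, Fzd1 was 2.18-fold and Rspo1 2.74-fold higher, and Sfrp1 2.44-fold lower. The intervals of Fzd1 (from 1.96) and Sfrp1 (from 1.85) reached below 2-fold. The lower count was 0 with a minimum FPKM of 5, and 2, with Lgr6 added, for a pseudocount of 0.1, for TPM over all entries and for TPM over transcripts of at least 300 bases. The highest entry per symbol gave 4 higher genes, with Fzd5 added. The median log2 difference of the members was 0.031 with no filter, over 58 genes, where that of all genes was 0.025. With the length trend removed it was 0.16, where that of all genes was 6.3e-05. The values reported above were 0.24 and 0.07. None of the 226 values of single genes that stayed measured under the alternatives changed sign. Part of the 226 could not do so, since other filters on low values and entries with status OK left each gene's value unchanged. Wnt7b is not among the 226 for the highest entry per symbol, where it fell under FPKM of 1. Its highest entries there, 0.710 and 0.681, went the other way from its sum. No paired analysis was possible because there is 1 library per genotype, and for the same reason no replicate could be left out. Counting error limits the genes under FPKM of 1 most.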

Other observations

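The nearest listed genes on either side of the 4 genes at least 1.5-fold apart were examined. Ebp, a gene of cholesterol synthesis 0.337 kb from Porcn, had FPKM of 1.57 (control) and 2.62 (Mst1/2 D/D), and Ftsj1, on the other side of Porcn, had 2.28 and 2.35. Cdk14, 45.2 kb from Fzd1, had 4.34 and 4.69. Gnl2, 20.9 kb from Rspo1, had 6.30 and 7.58, and Golga7, 154 kb from Sfrp1, had 13.6 and 13.8. None of these neighbours passed 1.5-fold on the log2(FPKM + 1) scale.

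Tcf7l2, a gene of many splice forms, was spread over its 8 listed entries in a different way in each library. The entry of 4101 bases had FPKM of 0.691 in the control pool and next to 0 in the other, and that of 4018 bases next to 0 and 0.525. The most abundant entry, of 4026 bases, had 1.32 and 1.18. With entries this alike, the split rests on how reads were shared among them and was not tested further.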
